A study of Homo sapiens with 3 samples.

Results

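The luminal lineage transcription factors examined here were FOXA1, GATA3, XBP1, SPDEF, ELF3, EHF, GRHL2, TFAP2A, TFAP2B and TFAP2C. Every peak of the merged ERRγ list that named one of these 10 genes as the nearest was taken, at any distance, which gave 58 of 15223 peaks (0.381%). The peaks were spread over 8 of the 10 genes, and TFAP2A and TFAP2C had none. The list came from BT-474, an established human breast tumour cell line of luminal type with amplified ERBB2. ERRγ (ESRRG) was precipitated with a custom antibody in 2 libraries and compared with 1 input DNA library. All 3 were from vehicle-treated cells collected 90 min after fresh medium, with no other treatment, and single 50 bp reads. The deposited table held no value per library, so there was no replicate spread, the read depth is unknown here, and nothing below rests on a significance test across samples. No expression was measured, so the luminal label of the genes could not be checked in these data.

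Luminal cells of the mammary gland line the ducts and secrete milk, and their identity is held by a small set of transcription factors. FOXA1, a forkhead protein, and GATA3, a zinc finger protein, open or hold open the chromatin at which the estrogen receptor binds, and TFAP2C, an AP-2 protein like TFAP2A and TFAP2B, is found at many of the same sites. The ETS proteins ELF3, EHF and SPDEF and the grainyhead protein GRHL2 maintain epithelial genes. XBP1, a leucine zipper factor, acts in the unfolded protein response and is an estrogen-responsive gene in breast cancer. ERRγ is an orphan nuclear receptor that binds as a monomer or dimer to AGGTCA extended at its 5′ side, written TNAAGGTCA.

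The median distance of the peaks from the transcription start site (TSS) was 89.1 kb, compared with 53.3 kb for the other peaks. None of the 10 genes had a peak within 1 kb of its TSS. At that distance 4.16% of all 20037 protein-coding genes had one, and 6.05% of the other peaks lay within it. With only 10 genes, this count is near the share of all genes and does not set the factors apart. Within 10 kb 3 of the 10 had a peak (FOXA1, ELF3 and EHF), against 11.5% of all protein-coding genes. At 50 kb 7 of 10 had one, against 22.6%. At 100 kb 8 of 10 had one, against 26.5%, and at any distance 8 of 10, against 29.6%. The factors were chosen with earlier results of these data known, so these shares serve only as description. The share of the peaks more than 100 kb from the TSS was 48.3%, compared with 34.8% of all peaks. A gene with a wide intergenic neighbourhood collects more peaks by the nearest-TSS rule, and the share by which this moves the counts was not tested.

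**Figure D1:**
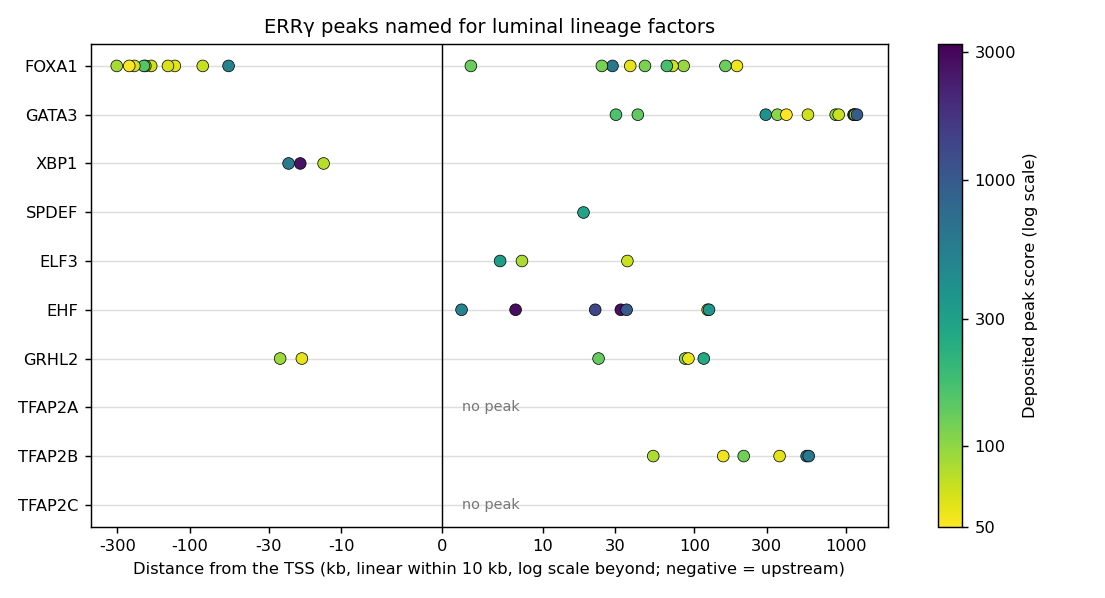
Signed distance from the TSS (kb) of each of the 58 ERRγ peaks, 1 row per factor, coloured by the deposited score on a log scale; the axis is linear within 10 kb and logarithmic beyond. No point lies within 1 kb of a start, the darkest points lie at EHF and XBP1, and GATA3, SPDEF, ELF3, EHF and TFAP2B have points only downstream.

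RefSeq promoter windows of the GRCh38.p14 build were at hand for 8 of the genes, 16 windows in all, and 250 bases before the start were read from each. GRHL2 and TFAP2C had no window, and GATA3 had more windows than any other gene. Those of FOXA1, both of EHF and the only TFAP2A window with AGGTCA are shown because they contrast the gene with the most peaks, the gene with the strongest peaks and a gene without any. Their positions belong to another build than the peaks (hg19) and are not set against them. Capitals mark AGGTCA, searched on both strands.
FOXA1 (GRCh38.p14, chr14:37595250-37595499, minus strand): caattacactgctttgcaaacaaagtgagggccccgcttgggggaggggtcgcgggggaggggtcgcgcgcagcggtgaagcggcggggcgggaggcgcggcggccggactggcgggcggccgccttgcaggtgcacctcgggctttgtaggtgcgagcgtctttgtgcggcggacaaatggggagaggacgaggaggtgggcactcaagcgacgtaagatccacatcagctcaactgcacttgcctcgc
EHF (GRCh38.p14, chr11:34624007-34624256, plus strand): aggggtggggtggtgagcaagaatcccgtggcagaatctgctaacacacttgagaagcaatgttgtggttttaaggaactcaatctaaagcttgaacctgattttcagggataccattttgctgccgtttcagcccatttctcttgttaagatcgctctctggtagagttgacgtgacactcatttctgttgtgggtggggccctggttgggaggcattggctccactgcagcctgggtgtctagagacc
EHF (GRCh38.p14, chr11:34632316-34632565, plus strand): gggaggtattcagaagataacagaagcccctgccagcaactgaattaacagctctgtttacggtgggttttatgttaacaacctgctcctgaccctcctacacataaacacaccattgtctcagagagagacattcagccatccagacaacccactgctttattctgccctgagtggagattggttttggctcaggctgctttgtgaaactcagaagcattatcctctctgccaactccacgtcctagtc
TFAP2A (GRCh38.p14, chr6:10419660-10419909, minus strand): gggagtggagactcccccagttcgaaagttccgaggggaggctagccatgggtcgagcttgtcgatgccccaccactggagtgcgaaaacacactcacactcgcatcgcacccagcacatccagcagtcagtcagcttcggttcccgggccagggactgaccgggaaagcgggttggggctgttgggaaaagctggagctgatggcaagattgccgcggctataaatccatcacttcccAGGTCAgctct

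The full element TNAAGGTCA was in 0 of the 16 windows, compared with 0.854% of 35116 RefSeq windows of the same length. AAGGTCA, which contains AGGTCA and is contained in TNAAGGTCA, was also in 0 of 16, compared with 3.44%. With only 16 windows, a count of 0 is near both of these shares. AGGTCA alone was in 1 of 16, compared with 12.1%, and that was the TFAP2A window shown, in which it starts at position -11 from the TSS. These letters describe the windows only. The sequence under the peaks was not read, since no genome of the hg19 build was used here.

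EHF, an ETS factor of epithelial cells, had the strongest set of peaks. At least 7 peaks were named for 1.23% of protein-coding genes. Of its 7 peaks, 5 lay in 36.0 kb from intron 1 to the downstream flank and all 7 lay downstream of the TSS. Going away from the start, the score was 494 at 1936 bp (intron 1 of 8), 2779 at 7288 bp (intron 1 of 8), 1338 at 22.1 kb (intron 6 of 8), 2758 at 32.7 kb and 1026 at 35.7 kb (both intergenic). The remaining peaks at 122.2 and 124.8 kb scored 64.4 and 363. The top peak covered chromosome 11, 34659934 to 34662664, and the next strongest 34685539 to 34687824. Scores of at least 2779 were held by 1.36% of all peaks, and scores of at least 2758 by 1.37%.

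At EHF 4 peaks within 50 kb belonged to the upper 10% of the list, which began at a score of 592. In a count chosen after these values were seen, 731 protein-coding genes (3.65%) had at least 1 such peak within 50 kb, 46 (0.230%) at least 2, and EHF alone (0.00499%) at least 3. The 5 nearby EHF peaks had GC fractions of 0.387 to 0.479 and mean conservation of 0.04 to 0.23, where conservation runs from 0 to 1. A sixth peak within 100 kb of the EHF TSS was named for ELF5, the neighbouring ETS gene of luminal progenitors, and scored 704 at -94.7 kb from the EHF start.

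XBP1 had 3 peaks, a number that 7.08% of protein-coding genes reached or passed, and 1 of them was among the strongest of the list. All 3 lay upstream in 11.5 kb of intergenic sequence. They scored 78.4 at -13.0 kb, 2635 at -18.6 kb and 578 at -22.2 kb. The strongest covered chromosome 22, 29213704 to 29216587, and its score or a higher one was held by 1.49% of all peaks. All 3 were annotated to repeats, of the AluSz, MIRb and L2b types, and their conservation was 0.05 to 0.06, below the median of the other peaks (0.07). The next gene on that side, ZNRF3, had no peak named for it. A peak in an intron of CCDC117, on the other side, scored 122 at 16.5 kb from the XBP1 start.

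FOXA1 had the most peaks, and their median score was below that of the list. Its 20 peaks made up 34.5% of the 58, and 0.115% of protein-coding genes (23) had at least 20. Their scores lay between 50.6 and 611, the median being 79.7, against 106 over the other peaks of the list, and 8 of the 20 were in the upper 50% of the list. The strongest lay 28.8 kb downstream (chromosome 14, 38034254 to 38037171, score 611) and the next 55.3 kb upstream (38118901 to 38120632, score 498). Only the strongest reached the upper 10% of the list. The peaks were split evenly, 10 upstream and 10 downstream, over 495.9 kb. On the downstream side 6 lay within the annotated MIPOL1 gene, 5 of them in introns and 1 in its 3′ UTR.

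The FOXA1 peak nearest to the start differed from the rest in composition. It covered exon 2 of 2 (38060660 to 38062599), 2860 bp from the TSS, and had a score of 129, a GC fraction of 0.618 and a conservation of 0.64. A conservation of at least 0.64 was held by 0.532% of all peaks. The other 19 FOXA1 peaks had GC fractions of 0.307 to 0.404. Their conservation ran from 0 to 0.53, the highest being a peak in intron 11 of 13 of MIPOL1, 191.0 kb downstream, with a score of only 55.5.

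The FOXA1 peaks lay close together, and those around them named for other genes were alike in score, GC and width. Each FOXA1 peak had 28 to 31 other peaks of any name within 500 kb. The median over the other peaks of the list was 7, and 2.46% of all peaks had at least 28. All 20 FOXA1 peaks lay within 495.9 kb, so each count of 28 to 31 includes all the other FOXA1 peaks. Much of this density thus follows from the FOXA1 count itself. Around the FOXA1 TSS, 30 peaks lay within 500 kb, of which 10 were named for other genes. The 20 FOXA1 peaks had a median score of 79.7, a median GC fraction of 0.344 and a median width of 2369 bp. The 10 peaks named for other genes had medians of 74.5, 0.349 and 2754 bp. The median width of the other peaks of the whole list was 1218 bp and their median GC fraction 0.405. Over all 802 peaks of chromosome 14, the median width was 1484 bp, the median GC fraction 0.379 and the median score 93.8. MIPOL1, the neighbouring gene, had 5 peaks of its own with a highest score of 181, and TTC6, on the other side, had none. How the rest of this local density bears on the FOXA1 count was not tested.

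**Figure D2:**
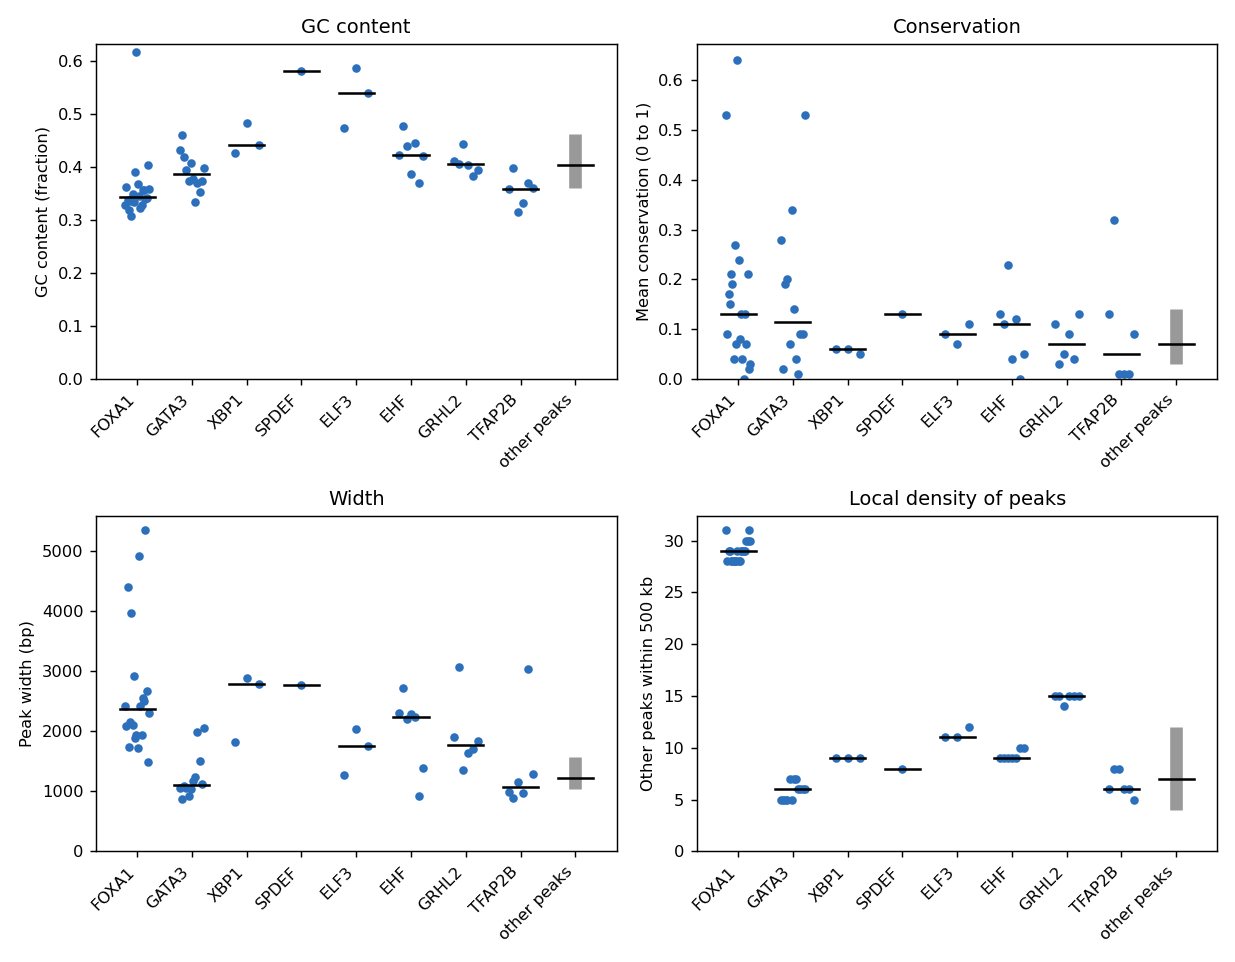
GC fraction, mean conservation, width (bp) and number of other peaks within 500 kb for each peak, by factor; points are peaks, black lines medians, and the grey bar the interquartile range of the 15165 other peaks. FOXA1 peaks sit at 28 to 31 in the density panel, above the other factors, with the other FOXA1 peaks counted. Only 1 FOXA1 peak has a GC fraction above 0.404.

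NPAS3, TBL1XR1 and PPFIA2 were the protein-coding genes closest to FOXA1 in the number of peaks and the highest score, by the sum of absolute log2 ratios. NPAS3 had 21 peaks with a highest score of 661, TBL1XR1 23 peaks with 679, and PPFIA2 17 peaks with 523, at sums of 0.18, 0.35 and 0.46. NPAS3 lies on chromosome 14 like FOXA1. Its peaks had a median of 23 other peaks of any name within 500 kb and a median GC fraction of 0.344. The values at PPFIA2, on chromosome 12, were 33 and 0.323, and those at TBL1XR1, on chromosome 3, were 15 and 0.394.

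**Figure D3:**
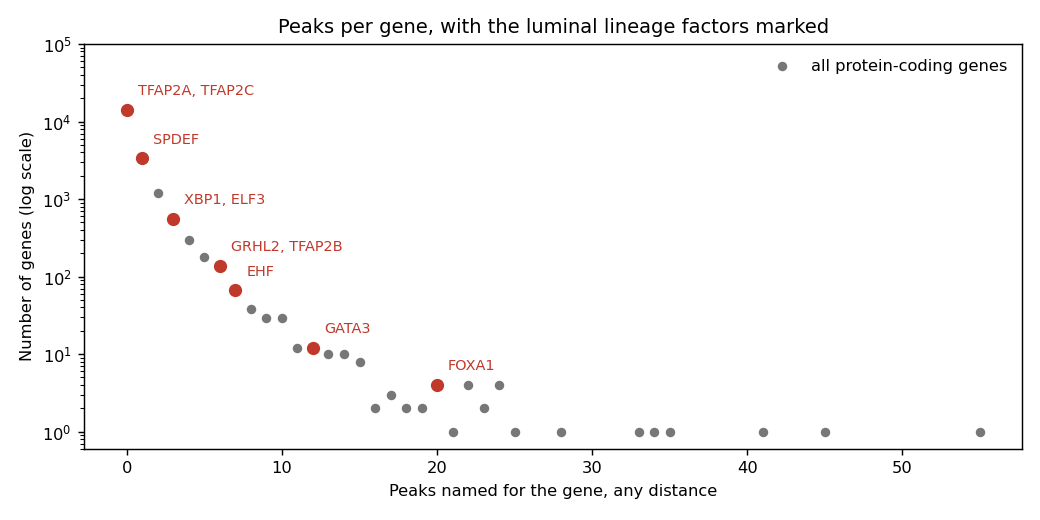
Number of protein-coding genes (log scale) by the number of ERRγ peaks named for them at any distance; the red points carry the names of the luminal lineage factors. FOXA1 with 20 peaks and GATA3 with 12 lie in the sparse right part, and TFAP2A and TFAP2C lie at 0.

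GATA3 had 12 peaks, of which none lay within 10 kb of the TSS and 2 lay within 50 kb. A count of 12 or more was reached by 0.359% of protein-coding genes (72). All 12 lay downstream of the TSS in intergenic sequence over 1155.2 kb, the nearest at 30.3 kb with a score of 163, and 7 lay more than 500 kb away. Its scores lay between 50.0 and 973, around a median of 121. The strongest was also the farthest, 1184.0 kb from the TSS (chromosome 10, 9279653 to 9281705), with a conservation of 0.53 that was reached by 1.10% of all peaks. The next gene in the reference order, CELF2, and the gene before GATA3, TAF3, had no peak named for them. Each GATA3 peak had 5 to 7 others within 500 kb, within the interquartile range of the other peaks of the list (4 to 12).

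The AP-2 genes differed from each other. TFAP2B had 6 peaks, a number reached or passed by 1.92% of protein-coding genes, all intergenic and downstream, at 53.5 to 568.6 kb. The strongest were the farthest, with scores of 564 at 550.8 kb and 621 at 568.6 kb (chromosome 6, 51354359 to 51355651), and the other 4 scored between 55.3 and 124. The adjacent paralog TFAP2D had 2 peaks, the stronger scoring 838 at -55.9 kb from its own TSS. TFAP2A had no peak, and of its neighbours SLC35B3 had none and GCNT2 had 1, of score 63.1, at 120 bp from the GCNT2 TSS. TFAP2C had none either, nor had its neighbours FAM209B and BMP7. As 70.4% of protein-coding genes had no peak at any distance, the absence at TFAP2A and TFAP2C is the common state of a gene in this list.

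The ETS genes ELF3 and SPDEF, known in secretory and glandular epithelium, had 3 peaks and 1 peak. At least 3 peaks were named for 7.08% of protein-coding genes, and at least 1 for 29.6%. The GC fractions of the ELF3 and SPDEF peaks were above the interquartile range of the other peaks (0.361 to 0.462). All 3 ELF3 peaks lay downstream. The strongest overlapped its last exon, 9 of 9, in the 3′ UTR (chromosome 1, 201984807 to 201986085), 5756 bp from the TSS, and scored 322, and the others scored 86.3 at 7918 bp and 69.4 at 36.1 kb. Within 100 kb of the ELF3 TSS 3 further peaks carried the names of other genes. The strongest of these scored 1588 at 97.0 kb and was named for GPR37L1, and the others scored 149 (TIMM17A) and 113 (GPR37L1). SPDEF had 1 peak, at the transcription termination site (chromosome 6, 34504203 to 34506984), 18.5 kb downstream of the start, and scored 287. Its GC fraction was 0.582, and the 3 ELF3 peaks had 0.474 to 0.588. Peaks named for other genes within 500 kb of the ELF3 and SPDEF starts had median GC fractions of 0.516 and 0.493. These medians were also above the interquartile range of the other peaks.

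GRHL2 had 6 peaks, as many as TFAP2B, and all were below the upper 10% of the list. They scored 92.4 at -25.2 kb, 58.0 at -18.1 kb, 134 at 23.3 kb, 109 at 86.9 kb, 56.9 at 91.3 kb and 261 at 115.3 kb. The first 2 were intergenic and upstream, the others lay in introns 1, 7, 7 and 8 of 15. Each had 14 or 15 other peaks within 500 kb, above the interquartile range of the other peaks (4 to 12). A peak of score 3100 lay at -82.4 kb from the GRHL2 TSS and was named for NACAP1, so the strongest ERRγ peak within 100 kb of GRHL2 was not among those named for it.

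**Figure D4:**
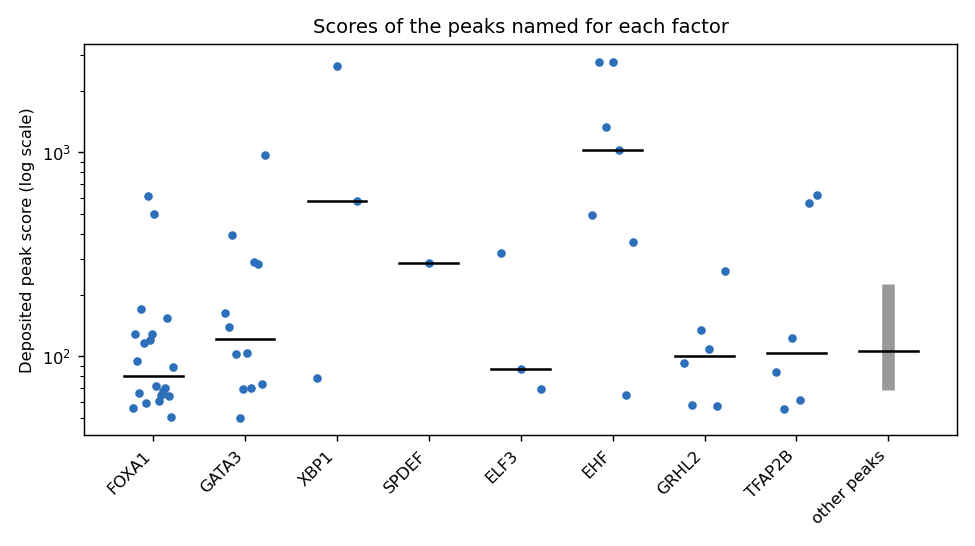
Deposited score (log scale) of each peak by factor; points are peaks, black lines medians, and the grey bar the interquartile range of the 15165 other peaks. EHF has a median of 1026 and FOXA1 one of 79.7, while TFAP2A and TFAP2C have no points.

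Over all 58 peaks the median score and conservation were close to those of the list, whereas the peaks of single genes lay far apart in score. The median score was 113, compared with 106 over the other 15165 peaks, and 8 of 58 (13.8%) were in the upper 10%, compared with 9.99%. Of these 8, 4 were at EHF and 1 each at FOXA1, GATA3, XBP1 and TFAP2B. In all 5.84% of protein-coding genes had a peak of the upper 10% at any distance. Median scores by gene ran from 79.7 at FOXA1 to 1026 at EHF. The median GC fraction was 0.381, compared with 0.405, and without FOXA1 it was 0.406. Median conservation was 0.09, compared with 0.07. The peaks were wider, with a median of 1926 bp compared with 1218 bp, and 1574 bp without FOXA1.

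At matched distances from the TSS the values depended on single genes. Of the 5 peaks within 10 kb, 1, at EHF, was in the upper 10%, compared with 414 of 2961 other peaks, and the median score was 322, compared with 133. Of the 25 peaks at 10 to 100 kb, 5 were in the upper 10%, compared with 695 of the other 6937 peaks in that range, and EHF held 3 of the 5. Of the 19 at 100 to 500 kb 0 were, compared with 343 of 4267, and the median score there was 67.6 compared with 93.9; FOXA1 held 10 of these 19 peaks. The 9 peaks beyond 500 kb, at GATA3 and TFAP2B, had a median score of 283, compared with 84.7 for the other 1000 peaks at such distances, and 2 of them were in the upper 10%, compared with 63 of the other 1000. None of these 9 was annotated to a repeat, compared with 43.3% of the other 1000. In all, 14 of 58 peaks (24.1%) were annotated to a repeat, compared with 34.7%, and 42 (72.4%) were intergenic, compared with 51.8%. Peaks of 1 gene share their surroundings and are not independent, so these shares describe the list and carry no test.

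Beside the 10 luminal factors, of which 8 had a peak at any distance and 3 within 10 kb, related gene lists gave the following counts. Of 15 paralogs 6 had a peak at any distance and 1 within 10 kb, with 12 peaks in all. GATA6 had 5 peaks with a highest score of 918, FOXA2 and TFAP2D had 2 each, and ELF1 had 1 of score 3100 at -11.6 kb. Of 12 basal and mesenchymal factors 7 (58.3%) had a peak at any distance and 1 (8.33%) within 10 kb. With lists this small, 6.67% and 8.33% within 10 kb are near the 11.5% of all protein-coding genes. TP63, a marker of basal cells, had 7 peaks with a highest score of 1739, SOX9 had 6 with 310, TWIST1 had 2 with 148 and FOXC1 had 1 with 104. Of 20 luminal partners and target genes 17 had a peak at any distance, 9 within 10 kb and 2 within 1 kb. The prolactin receptor gene PRLR had 13 peaks with a highest score of 3100, the corepressor gene TLE3 had 10 with 911, AGR3 had 8 with 3099 and the estrogen receptor gene ESR1 had 5 with 123. The median number of peaks per gene was 4.5 over the luminal factors, 0 over the paralogs, 1 over the basal and mesenchymal factors, 2 over the luminal partners and targets, and 0 over all protein-coding genes. The members and lists were chosen with earlier results of these data known, and the differences between lists were not tested.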

How the data were processed

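Binding of ERRγ was measured by ChIP-seq in BT-474 cells, with 2 ERRγ libraries and 1 input library. BWA 0.5.9, MACS 1.4.1 and HOMER 3.18 with the hg19 build are named in the submitters' processing notes, without their roles. How the libraries were merged, the read depth and the peak threshold are not stated in the sources used here. Per the file headers, the deposited table gives for each peak a score, the distance to the nearest TSS, GC and CpG content and a mean conservation. The deposited score has no stated unit, and 158 peaks tie at 3100, so it served only for description and ranking. The deposited GC content is a fraction, and the deposited conservation a score from 0 to 1. Distances to the TSS are the authors' values in bp from the peak centre. Width is end minus start.

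Peaks were assigned by the gene named in the table. Gene identifiers of 15153 of 15223 peaks matched a RefSeq table of GRCh38.p14, used for symbols, gene order and the 20037 protein-coding genes of the background. The TSS of each factor was derived from peak centre and distance. The members and lists were chosen with earlier results of these data known. The text names the 10 factors, up to 4 genes with the most peaks per comparison list (ties by symbol), the 3 genes most like the factor with most peaks, and neighbouring genes. Counting was tested on simulated data (Python 3.11.15, pandas 2.3.3, numpy 2.4.6, scipy 1.17.1). Alternatives were the upper 50% and 10% of the peaks, merging within 500 bp, other distances, leaving out the factor with the most peaks, and naming by distance alone. No test was run, since 1 merged list has no replicates.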

Additional observations from a re-analysis of the deposited data

How the results depend on the processing

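The 58 peaks became 30 in the upper 50% of the list by score, 8 in the upper 10%, 30 within 100 kb of the TSS and 38 without FOXA1, and 57 when peaks within 500 bp were merged. Counted within 100 kb of the TSS of the 8 factors whose TSS could be derived, whatever gene the peaks were named for, there were 36. The count of 3 factors with a peak within 10 kb was 0 at 1 kb, 7 at 50 kb, 8 at 100 kb and 8 at any distance, and 1 in the upper 10% of the list. It was 3 in the upper 50% and with merged peaks, and 2 without FOXA1. The median score of 113 (95% order-statistic interval 83.6 to 154, counting error only) was 307 in the upper 50% and 1180 in the upper 10%, as the selection on score requires. It was 116 to 136 under the other alternatives. The intervals for score and GC treat the 58 peaks as independent. Peaks of 1 gene are not, so the 95% level need not hold. The median GC fraction of 0.381 (0.362 to 0.404) was 0.406 without FOXA1, whose AT-rich peaks are 34.5% of the set, and 0.420 in the upper 10% and 0.417 within 100 kb, where the cause was not tested. The median conservation stayed between 0.09 and 0.115 under the 5 alternatives run. No paired analysis was possible because the table holds 1 merged list without values per library. The unknown depth limits the detection of weak peaks, so a factor without a peak is one without a peak in this list.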
